A study of Mus musculus with 9 samples.

Results

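The livers compared here differ, by their labels, in the deletion of the gene for HP1γ. Mice of the HP1ag_KO group (3 livers) are labelled as lacking HP1α (HP1a-/-) and as carrying a liver deletion of HP1γ (HP1gliver-/-), and mice of the HP1a_KO group (2 livers) are labelled as lacking HP1α alone. The members are the 5 libraries titled HP1alpha_gamma_KO and HP1alpha_KO, of 9 in the series, and all genes with a mean normalised read count of at least 10 over these 5 libraries, which were 13902 of 22701. The other libraries, 1 labelled as lacking HP1α with a liver deletion of HP1β (HP1ab_KO) and 3 of WT mice, are given only as levels and for their share in the estimate of the spread. All mice were 5 weeks old, on a background labelled C57BL/6 and 129svPas, and RNA was depleted of ribosomal RNA before sequencing. The labels do not name the Cre line behind the liver deletions, and they give each mouse a number but neither its litter nor its sex. Whole liver holds other cells besides hepatocytes, and a bulk value cannot tell fewer cells of a type from less RNA per cell. Because nothing in the labels says more about how the livers were obtained, p-values measure the spread between these samples, which may be partly technical.

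HP1α, HP1β and HP1γ are encoded by Cbx5, Cbx1 and Cbx3. Each binds methylated lysine of histone H3 through a chromodomain and recruits partner proteins through a chromoshadow domain. They help to form heterochromatin and, through the corepressor TRIM28, take part in silencing by KRAB zinc finger proteins, and HP1γ is also found in the bodies of transcribed genes. The liver is mainly hepatocytes, which secrete plasma proteins and, in inflammation, acute phase proteins.

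HP1ag_KO livers had higher levels of most interferon-stimulated genes, zinc finger genes and annotated long noncoding RNAs than HP1a_KO livers, and lower levels of most acute phase genes, stress response genes and Kupffer cell markers. By the main test, limma, 0 genes (0%) passed an adjusted p of 0.05 (smallest adjusted p = 0.126), so the differences below are descriptions unless a DESeq2 call is given. At an unadjusted p under 0.05 limma had 1094 higher genes (7.87%) and 1162 lower genes (8.36%). DESeq2, a count test on the recovered reads, called 235 genes higher (1.69%) and 221 lower (1.59%), edgeR called 0 (2207 at an unadjusted p under 0.05), and 288 genes had no DESeq2 adjusted p. Every HP1ag_KO library lay above both HP1a_KO libraries for 2436 genes (17.5%) and below both for 2660 (19.1%). These shares of all genes tested are the measure for the counts in the lists below. The median log2 difference over all genes tested was -0.02, with 6681 genes (48.1%) higher and 7221 lower. The called genes also differed between WT livers. WT values took no part in the difference itself but shared in the estimate of the spread behind the calls. WT replicate 1 lay above the mean of WT replicates 2 and 3 for 28.9% of the genes called higher and 84.2% of those called lower. Among all genes tested the share was 49.8%. This rests on 1 liver, and other ways to split the WT livers are not given. The part that such variation between livers of 1 genotype has in the calls was not tested. The DESeq2 calls rest heavily on single libraries. With HP1a_KO replicate 1 left out DESeq2 made 29 calls, and with HP1a_KO replicate 2 left out it made 72. Leaving out HP1ag_KO replicate 1 gave 472 calls, replicate 2 gave 152 and replicate 3 gave 200. Here and below, differences are HP1ag_KO minus HP1a_KO on the log2(value + 1) scale, "called" means a DESeq2 adjusted p under 0.05, and "higher" and "lower" without a call give only the sign.

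**Figure D1:**
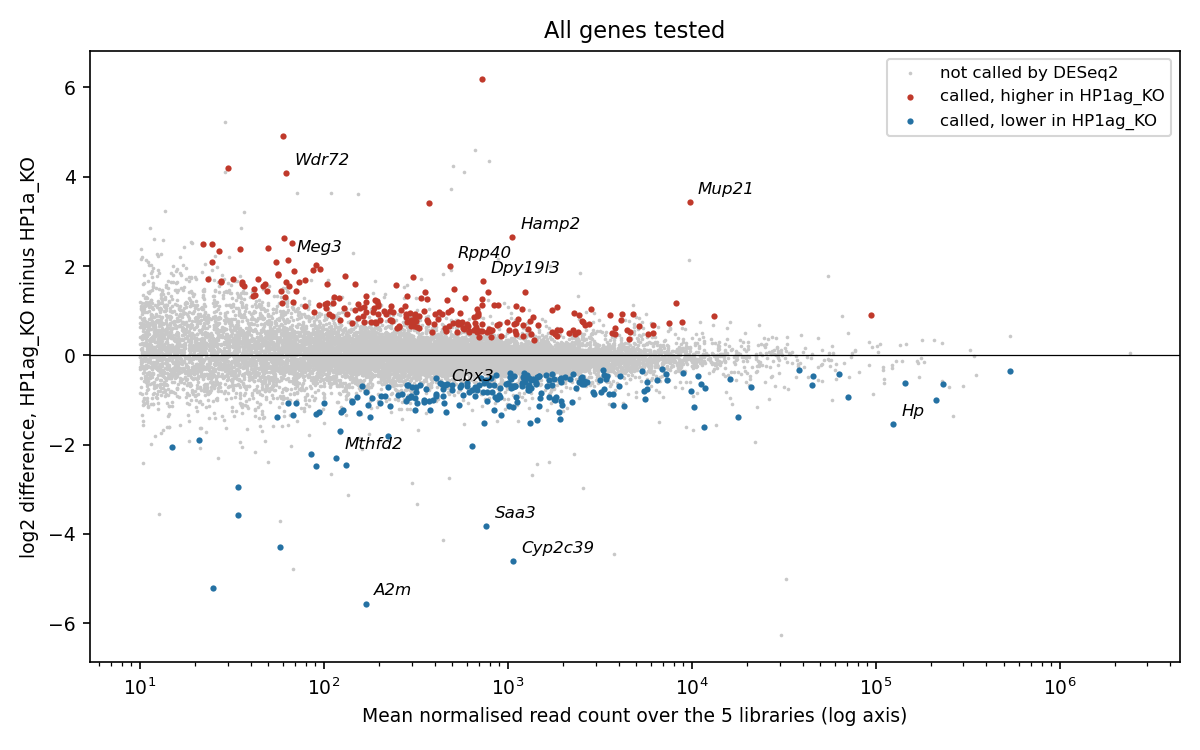
Log2 difference of HP1ag_KO minus HP1a_KO livers (y axis) against the mean normalised read count over the 5 libraries (x axis, log scale), 1 point for each of 13902 genes. Red points are the 235 genes DESeq2 called higher in HP1ag_KO, blue points the 221 called lower, and grey points the rest.

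Reads counted in genes numbered 26375545 to 29439581 in the HP1ag_KO libraries, against 16266423 in HP1a_KO replicate 1 and 34834239 in HP1a_KO replicate 2. Hepatocyte transcripts were abundant in each. Ttr, which encodes transthyretin, had 115553, 158694 and 158198 normalised reads in HP1ag_KO livers and 112104 and 130149 in HP1a_KO livers, and the hepatocyte regulator Hnf4a had 18365, 18568 and 16661 against 20309 and 22712. On the first principal component of the 5 libraries (43.6% of the variance) the HP1ag_KO libraries lay at -2.48, 48.1 and 19.3 and the HP1a_KO libraries at -40.4 and -24.6. The second (26.0%) set HP1ag_KO replicate 1, at -45.5, apart from the other 4 libraries (-4.33 to 19.2). Transcripts poor in G and C tended to be higher in HP1ag_KO: the Spearman correlation of the log2 difference with transcript GC content was -0.14 over 13754 genes, and the median difference was 0.09 in the lowest of 10 equal bins of GC content and -0.08 in the highest. The part that depth or GC content has in the differences was not tested.

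Cbx3, the gene labelled as deleted in HP1ag_KO livers (ENSMUSG00000029836, chromosome 6, 51470360 to 51483704, build GRCm38), stood at 380.0, 326 and 343 normalised reads in HP1ag_KO replicates 1 to 3 and at 572 and 609 in HP1a_KO replicates 1 and 2. The groups did not overlap, and the HP1ab_KO library (542) and the WT libraries (536 to 641) were at the HP1a_KO level or near it. The difference, -0.76 ± 0.13 SE on the log2 scale, had an adjusted p of 0.00129 by DESeq2 and 0.126 by limma. By DESeq2 it was 0.102 with HP1a_KO replicate 1 left out and 0.204 with HP1a_KO replicate 2 left out. Transcripts thus remained in the livers labelled as lacking HP1γ. The labels do not say which part of Cbx3 was deleted, and any reads from outside it, or from cells that keep the gene, are in these values. Hnrnpa2b1, which encodes a ribonucleoprotein and starts 722 bases from the RefSeq start of Cbx3 on the other strand, had 3935, 4066 and 3698 normalised reads in HP1ag_KO livers and 3528 and 4483 in HP1a_KO livers, and the groups overlapped (log2 difference -0.03 ± 0.12 SE).

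The genes of the other HP1 proteins were not called. Cbx5, the HP1α gene labelled as deleted in both groups, had 663, 813 and 753 normalised reads in HP1ag_KO livers, all above the 576 and 501 in HP1a_KO livers and below the 997 to 1542 in WT livers. As with Cbx3, transcripts remained in every library labelled as a knockout, and the labels do not say which part was deleted. Its log2 difference was 0.46 ± 0.19 SE (DESeq2 adjusted p = 0.251). Cbx1, the HP1β gene, had 689.9, 856 and 713 normalised reads in HP1ag_KO livers and 457 and 771 in HP1a_KO livers. Those groups overlapped. The log2 difference of Cbx1, 0.34 ± 0.23 SE, became -0.04 without HP1a_KO replicate 1 and 0.71 without HP1a_KO replicate 2. Among 44 genes of HP1 partners and heterochromatin, 23 were higher and 21 lower, with a median of 0.03 (-0.04 without HP1a_KO replicate 1) and Cbx3 as the only call. Smchd1, a chromosome-structure protein needed for X inactivation, had 1198, 1142 and 1129 normalised reads in HP1ag_KO livers against 936 and 917 in HP1a_KO livers, and the repressor Bend3 had 211, 173 and 182 against 261 and 294. Neither gene's groups overlapped, and neither was called (DESeq2 adjusted p = 0.266 and 0.0854). Of 89 genes tested within 10 Mb of Cbx3, 48 were higher and 41 lower (median 0.11, 0.05 without HP1a_KO replicate 2), and 2 were called, the ion channels Tmem176a and Tmem176b, both lower. The share called lower over all genes tested, 1.59%, was close to this.

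**Figure D2:**
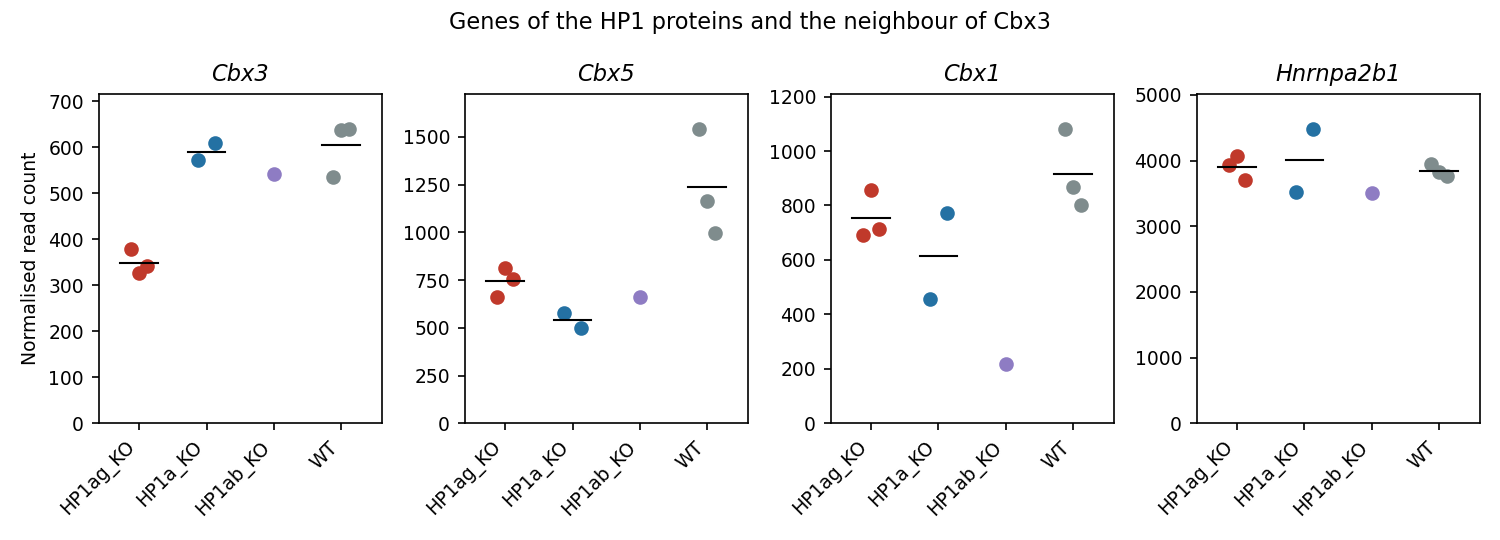
Normalised read counts (y axis, from 0) of Cbx3, Cbx5, Cbx1 and Hnrnpa2b1 in each library, with 1 point per liver and a line at the mean of groups with more than 1 liver. Cbx3 is lower in all 3 HP1ag_KO livers (326 to 380.0) than in both HP1a_KO livers (572 and 609), and Cbx1 is lowest in the HP1ab_KO liver (217).

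Genes were named when DESeq2 called them, their groups did not overlap and whichever group was higher averaged 50 or more. With unnamed models, Xist and Y-linked genes left out, this held for 150 higher and 206 lower genes. Without the bounds on level and name, 232 higher and 220 lower called genes did not overlap. The 15 with the widest difference in each direction are described here. Only 4 of these 30 kept their call without any 1 of the 5 libraries: Rpp40, Dpy19l3, Cyp2c39 and Saa3. Leaving out HP1a_KO replicate 1 kept the call of 7, and leaving out HP1a_KO replicate 2 that of 12. Leaving out HP1ag_KO replicate 1 kept 26, replicate 3 kept 23 and replicate 2 kept 10, where several had no adjusted p.

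Rpp40 (chromosome 13, 35893472 to 35906359), a protein subunit of ribonuclease P, had 448, 985 and 651 normalised reads in HP1ag_KO livers and 156 and 173 in HP1a_KO livers. All HP1ag_KO livers were above every other library, since HP1ab_KO had 364 and WT 131 to 201. Means were 695 ± 271 in HP1ag_KO (SD, n = 3) and 164 ± 12.0 in HP1a_KO livers (SD, n = 2), with an adjusted p of 4.19e-06 by DESeq2 and 0.126 by limma. Dpy19l3 (chromosome 7, 35685165 to 35754454), an enzyme that adds mannose to tryptophan of proteins, had 778, 1343 and 907 against 308 and 313, with 555 in HP1ab_KO and 189.5 to 297 in WT livers. Again the 3 HP1ag_KO livers were above all others, with a log2 difference of 1.66 ± 0.25 SE (DESeq2 adjusted p = 4.19e-06). Akap5, an anchor of protein kinase A, had 97.5, 138 and 149.5 against 20.2 and 45.6 (WT 38.2 to 62.9, log2 difference 2.02, DESeq2 adjusted p = 0.00167), and its difference was 1.45 without HP1a_KO replicate 1.

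Other higher genes varied widely among the HP1ag_KO livers. Mup21, a major urinary protein, had 2512, 25894 and 18132 normalised reads in HP1ag_KO replicates 1 to 3 against 1398 and 682 in HP1a_KO livers, so that replicate 1 stood near the WT level (372 to 2201). The HP1ab_KO liver, at 6918, was above HP1ag_KO replicate 1. Hamp2, a copy of the gene for the iron hormone hepcidin, had 1290.5, 2919 and 619.8 against 152 and 293 (log2 difference 2.64 ± 0.72 SE, DESeq2 adjusted p = 0.0244). Its related copy Hamp was 1 of the 2 higher genes in the acute phase list described below. Meg3, a long noncoding RNA of the imprinted Dlk1-Dio3 region, had 30.1, 132 and 121 against 20.2 and 14.6, with 16.9 to 21.3 in WT livers: replicates 2 and 3 were high and replicate 1 was close to the other groups. Rian, a neighbour of Meg3 chosen after its values were seen, had the same high libraries, with 41.9, 213 and 193 against 55.0 and 27.5 (DESeq2 adjusted p = 0.0652). Wdr72, a WD-repeat protein gene, had 2.73, 63.9 and 241 against 1.83 and 0.860, where the HP1a_KO values are 1 read each and the HP1ag_KO values 3, 57 and 255 reads, so no fold is given.

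The tyrosine kinase Ptk6 had 49.2, 135 and 40.7 normalised reads in HP1ag_KO livers against 7.34 and 17.2 in HP1a_KO livers, and WT livers (36.2 to 48.0) lay near the lower HP1ag_KO values. The glutathione transferases Gsta2 (159, 197 and 57.7 against 36.7 and 26.7) and Gstt3 (1035, 740.2 and 325 against 224 and 225) were also called, although WT livers held 74.3 to 226 and 204 to 443. The stem cell marker Prom1 had 293, 60.6 and 36.9 against 25.7 and 19.8, with 1 high library, and its log2 difference of 1.90 was 1.04 without HP1ag_KO replicate 1. The last 5 of these genes, Snhg11, Rwdd3, Ankrd23, Adam4 and Gstt3, had log2 differences of 1.48 to 1.65. Adam4, a metalloprotease-like gene, was steady within each group, at 55.6, 49.3 and 65.3 against 20.2 and 18.9. Its DESeq2 adjusted p of 0.0190 was 0.0687 without HP1ag_KO replicate 1 and 0.155 without HP1ag_KO replicate 3. Without HP1ag_KO replicate 2 Adam4 had no adjusted p. Rwdd3, an enhancer of SUMO conjugation, had 174, 302 and 128 against 38.5 and 97.2, and its difference of 1.61 was 0.95 without HP1a_KO replicate 1.

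Cyp2c39 (chromosome 19, 39510862 to 39568529), a cytochrome P450 known as a retinoic acid hydroxylase, had 175, 60.6 and 87.1 normalised reads in HP1ag_KO livers and 3258 and 1764 in HP1a_KO livers. The HP1ab_KO liver (1690.0) was high like the HP1a_KO livers, and the WT livers (33.8 to 83.8) were low like the HP1ag_KO livers. It had the smallest p of all genes by either tool (log2 difference -4.61 ± 0.51 SE, adjusted p = 2.84e-18 by DESeq2 and 0.126 by limma). Wdfy1, an endosomal adaptor named here for its small limma p, had the same arrangement, with 303, 335 and 299 against 668 and 644, 703 in HP1ab_KO and 241 to 326 in WT livers (log2 difference -1.07 ± 0.15 SE, DESeq2 adjusted p = 7.60e-06). In the Cyp2c family as a whole 8 of 13 genes were higher, and Cyp2c38 (2611, 1339 and 1033 against 822 and 402, log2 difference 1.42, 0.90 without HP1a_KO replicate 2) and Cyp2c50 (14188, 20586 and 13713 against 7968 and 9389.9) were called higher, with no overlap between the groups. Reads may be shared between Cyp2c, Mup, Saa, Gst and Hamp copies, so the levels of these families are uncertain.

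The other lower genes stood in several relations to WT. A2m, the protease inhibitor alpha-2-macroglobulin, had 0.911, 8.97 and 11.4 normalised reads in HP1ag_KO livers against 701 and 120.4 in HP1a_KO livers, but WT livers spanned 13.3 to 190.5. Susd4, a complement regulator, had 20.1, 55.0 and 21.8 against 116 and 238, below the 146 to 559 of WT livers. Ces4a, a carboxylesterase, had 29.2, 83.0 and 83.3 against 128 and 286 (WT 255 to 365), and its log2 difference of -1.69 was -1.11 without HP1a_KO replicate 2. Susd4 and Ces4a were thus lowest in HP1ag_KO, with HP1a_KO between HP1ag_KO and WT in the group means, though HP1a_KO and WT livers overlapped.

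Egr1, an immediate early transcription factor, had 103, 58.3 and 131 normalised reads in HP1ag_KO livers against 159.6 and 669 in HP1a_KO livers, and its difference of -1.81 was -0.78 without HP1a_KO replicate 2 and -2.85 without HP1a_KO replicate 1. Pfkfb3, which sets the level of a glycolysis activator, had 1034, 520.4 and 771 against 2459 and 1829. Pcbp2, an RNA-binding protein gene, had 963, 726 and 871 against 2125 and 2554. For both, WT replicate 1 was at or near the HP1a_KO level (1776 for Pfkfb3 and 2092 for Pcbp2). The lens crystallin gene Crybb3 (33.7, 20.2 and 48.3 against 216 and 107) and Prg4, the joint lubricant lubricin (432, 211 and 221 against 1495 and 831), were called lower too, without overlap.

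**Figure D3:**
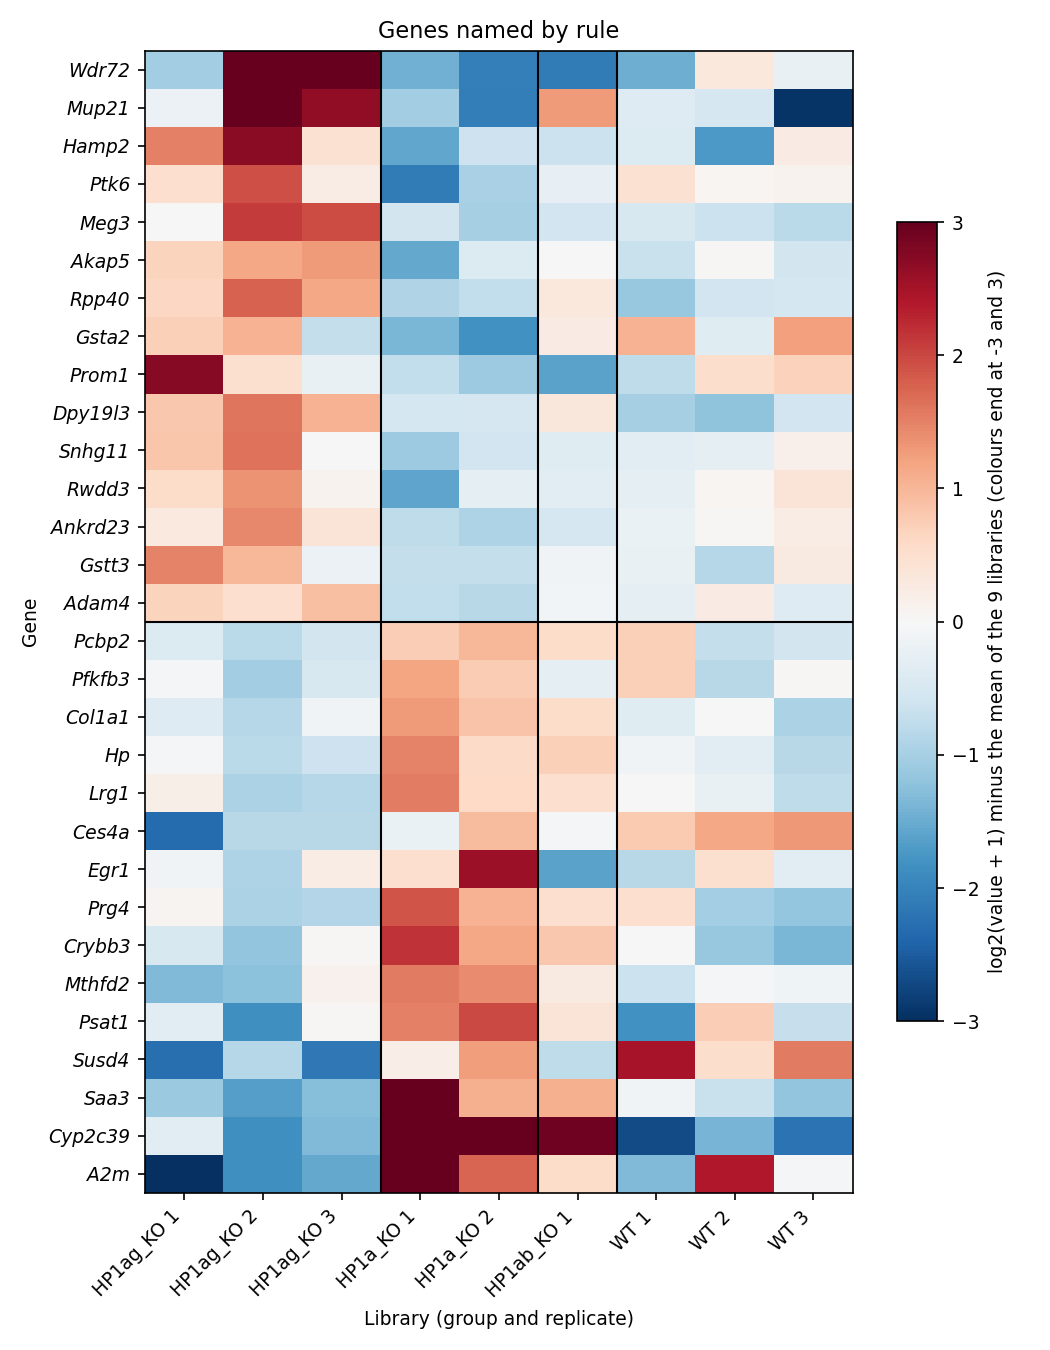
Colours give log2(value + 1) minus the mean of the 9 libraries for the 15 higher and 15 lower genes named by rule (rows) in every library (columns, HP1ag_KO on the left and WT on the right). Red is above and blue below that mean, and several WT and HP1ab_KO cells share the colour of the HP1a_KO libraries or of the HP1ag_KO libraries.

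Genes with the smallest limma p were chosen after their values were seen, and a narrow spread within the groups is part of what chose them. The homeobox gene Meis1 had 215, 199.6 and 217 normalised reads in HP1ag_KO livers against 103 and 96.4 in HP1a_KO livers (WT 121 to 145, log2 difference 1.07 ± 0.15 SE, DESeq2 adjusted p = 0.000260). P2rx4, an ATP-gated ion channel, had 1271, 1321 and 1346 against 2220.0 and 2010.5 (-0.69, DESeq2 adjusted p = 2.31e-05). Mars, the methionyl-tRNA synthetase, had 1557, 1663 and 1631 against 2429 and 2451 (-0.59, DESeq2 adjusted p = 1.94e-05), with 1671 to 1781 in WT livers. In each case the 3 HP1ag_KO livers lay apart from the 2 HP1a_KO livers, and for P2rx4 and Mars the WT livers lay nearer to HP1ag_KO. Crebzf, Snapc3 and Zkscan3, a cofactor, a subunit of the small nuclear RNA activating complex and a zinc finger repressor, were higher by 0.70, 0.87 and 1.08, and each was called (DESeq2 adjusted p = 8.58e-05, 0.000528 and 3.50e-05). Of the 5 fits that leave out 1 library, Zkscan3 was called in 5, Meis1 and P2rx4 in 4, and Mars, Crebzf and Snapc3 in 3.

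Acute phase genes were lower in HP1ag_KO livers. Of 33 members 31 were lower and 2 higher, with a median log2 difference of -0.86 against -0.02 over all genes. At an unadjusted limma p under 0.05 there were 18 lower members and 0 higher, and DESeq2 called 7, all lower: A2m, Saa3, Hpx, Orm1, Lbp, Hp and Lrg1. Among all genes tested 8.36% were lower at that unadjusted p and 1.59% were called lower. The serum amyloid gene Saa3 had 96.6, 66.2 and 86.1 normalised reads in HP1ag_KO livers and 3137 and 440.5 in HP1a_KO livers, with 439 in HP1ab_KO and 91.8 to 197 in WT livers (log2 difference -3.83 ± 0.71 SE, -2.41 without HP1a_KO replicate 1 and -5.24 without HP1a_KO replicate 2). HP1a_KO replicate 1 was by far the highest library. Orm1, orosomucoid, had 11155, 10286 and 10046 against 38964 and 18917 (log2 difference -1.37 ± 0.26 SE, DESeq2 adjusted p = 5.68e-05), and its difference was -0.85 without HP1a_KO replicate 1. Haptoglobin Hp, which binds free haemoglobin, had 91764, 54474 and 62758 against 271219 and 142893 (-1.53 ± 0.35 SE, DESeq2 adjusted p = 0.000666).

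Lrg1, a glycoprotein of the acute phase, had 9865, 4527 and 4869.5 normalised reads in HP1ag_KO livers and 25378 and 13312 in HP1a_KO livers. WT livers held 53973 to 89108 of Hp and 5149 to 8676 of Lrg1, within or near the HP1ag_KO range. The serum amyloid genes Saa1 (13574, 1227 and 432 against 113768 and 34047) and Saa2 (7154, 262 and 198 against 119327 and 25419) differed most within the groups, with the highest HP1ag_KO value in replicate 1, and they had no DESeq2 adjusted p. As means of centred log2 values over the list, the HP1ag_KO livers stood at 0.33, -0.62 and -0.76, the HP1a_KO livers at 1.53 and 0.54, HP1ab_KO at 0.54 and WT at -0.37, -0.35 and -0.85. The order among HP1ag_KO livers thus put replicate 1 highest, below HP1a_KO replicate 2. The list median was -0.44 without HP1a_KO replicate 1 and -1.28 without HP1a_KO replicate 2.

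Kupffer cell markers were mostly lower beside the acute phase genes. Of 17 Kupffer cell markers, which mark the macrophages of the liver, 15 were lower (median -0.36), 5 at an unadjusted limma p under 0.05 (8.36% of all genes tested). DESeq2 called the iron exporter Slc40a1 and the haemoglobin scavenger receptor Cd163 lower, against 1.59% of all genes tested. Slc40a1 had 5653, 4874 and 5921 normalised reads in HP1ag_KO livers and 7849 and 8261 in HP1a_KO livers, without overlap (-0.56 ± 0.11 SE, DESeq2 adjusted p = 0.00365). Cd163 had 601, 437 and 611 against 1106 and 1094 (-1.02 ± 0.26 SE, DESeq2 adjusted p = 0.0226). The defining markers were less uniform. Cd5l (4714, 2864 and 3405 against 6027 and 5005) did not overlap, while Clec4f (5892, 4455 and 4680.3 against 5447 and 4402), Vsig4, Timd4 and Marco did, with log2 differences of 0.02, -0.15, -0.21 and -0.61. Summed over the list, the HP1ag_KO livers had 29529, 28393 and 29354 and the HP1a_KO livers 36695 and 35174 normalised reads, and no defining marker was at 0. The WT livers had 27863, 26509 and 28677 and the HP1ab_KO liver 34497, so the HP1ag_KO livers lay near the WT level. The list median was -0.25 without HP1a_KO replicate 1 and -0.52 without HP1ag_KO replicate 1.

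The table held 18 neutrophil and granule genes, of which 8 were under the filter on low values, while Ltf and Ngp had a mean above it in HP1a_KO livers only, so no count or median of the list is read. Summed over all 18, the level was 2333, 247 and 361 normalised reads in HP1ag_KO livers and 16125 and 2240.2 in HP1a_KO livers, and DESeq2 called none. HP1a_KO replicate 1 stood far above the rest, mostly through Lcn2, a siderophore-binding protein that hepatocytes also make (1880.1, 99.8 and 63.4 against 15168 and 1685, log2 difference -4.46, -2.87 without HP1a_KO replicate 1). S100a8, a calcium-binding protein of neutrophils, had 33.7, 10.1 and 33.1 against 91.7 and 62.8, without overlap (DESeq2 adjusted p = 0.0793). Summed over all 17 erythroid markers, 5 of them under the filter, the level was 8978, 6622 and 10609 in HP1ag_KO and 12856 and 14759 in HP1a_KO livers, and that of 19 lymphocyte markers was 1460.0, 1359 and 1152 in HP1ag_KO and 1183 and 1126 in HP1a_KO livers, with none called. The part of blood or immune cell content in the acute phase and other differences was not tested.

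Matrix and vessel genes differed in part. Of 26 stellate cell and fibrosis markers 19 were lower (median -0.28), and DESeq2 called Col1a1 and Tgfb1 lower, against 1.59% of all genes tested. Col1a1, the main chain of collagen I, had 440.2, 319 and 537 normalised reads in HP1ag_KO livers and 1391 and 1045 in HP1a_KO livers, with 843 in HP1ab_KO and 296 to 569 in WT livers (-1.51 ± 0.31 SE, DESeq2 adjusted p = 0.000747). The growth factor Tgfb1 had 108, 107 and 79.5 against 261 and 220.2 (-1.30 ± 0.25 SE, DESeq2 adjusted p = 0.00170). The HP1ag_KO livers lay below both HP1a_KO livers for each. The stellate cell markers Reln, Dcn, Des and Lrat had log2 differences of -0.10, 0.15, 0.04 and -0.01, and none was called. The summed level of the list was 27121, 24995 and 27458 in HP1ag_KO and 32814 and 30492 in HP1a_KO livers, and its median was -0.16 without HP1a_KO replicate 1.

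Sinusoidal endothelial markers split, with 11 of 23 higher, 12 lower and a median of -0.01. The junction protein Cdh5 (862, 836 and 795 against 1303 and 1241), the nuclease Dnase1l3 (597, 579.9 and 527 against 1493 and 1391) and the receptor Eng (1033, 1135 and 1013 against 1813 and 1559) were called lower, without overlap. Egfl7, a secreted vessel protein, was called higher, at 939, 986 and 812 against 679 and 535. Over all genes tested 1.69% were called higher and 1.59% lower. The defining markers Stab2 and Kdr had differences of 0.02 and -0.01. Clec4g and Oit3, also defining, were higher by 0.46 and 0.25 without overlap, and Lyve1 had -0.21 with overlap. None of these defining markers was called.

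Most genes of the endoplasmic reticulum and integrated stress response list were lower. This response runs through the transcription factor ATF4 and is set off by amino acid shortage or misfolded protein. Of 34 stress response members 29 were lower, with a median of -0.22, 8 lower at an unadjusted limma p under 0.05, and 3 called: Mthfd2, Psat1 and Sesn2. The shares of all genes tested were 8.36% lower at that unadjusted p and 1.59% called lower. Mthfd2, a mitochondrial folate enzyme, had 30.1, 32.5 and 84.2 normalised reads in HP1ag_KO livers and 228 and 207 in HP1a_KO livers, with 93.5 in HP1ab_KO and 48.9 to 75.2 in WT livers (-2.29 ± 0.43 SE, DESeq2 adjusted p = 0.000784). Psat1, an enzyme of serine synthesis, had 59.2, 20.2 and 75.7 against 213 and 296 (-2.45 ± 0.76 SE, DESeq2 adjusted p = 0.0299). The groups did not overlap for either, and the WT livers lay at the HP1ag_KO level or partly above it (Psat1 20.5 to 125). Sesn2, an amino acid sensor, had 344, 201 and 219.5 against 554 and 443 (means 255 ± 78.1 and 499 ± 78.5, SD, DESeq2 adjusted p = 0.0251).

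Phgdh, which opens the serine pathway, had 18.2, 6.73 and 24.6 normalised reads in HP1ag_KO livers and 75.2 and 54.2 in HP1a_KO livers, and was not called (DESeq2 adjusted p = 0.0657). The hormone gene Fgf21 had 141, 15.7 and 76.6 against 306 and 1059.9 (log2 difference -3.33 ± 0.98 SE, DESeq2 adjusted p = 0.0876). The asparagine synthetase gene Asns had 31.9, 79.6 and 185 against 411 and 798 (DESeq2 adjusted p = 0.305), and WT replicates 1 to 3 stood at 837, 81.9 and 58.1. The glutathione-degrading enzyme gene Chac1 had 229, 187 and 101 against 294 and 476 (DESeq2 adjusted p = 0.141). Fgf21, Asns and Chac1 were not called. In contrast, the chaperone Hspa5 (22061, 39712 and 24138 against 22356 and 20875), the transcription factor Atf4 (3219.8, 1752 and 2066 against 2503 and 2570.5) and Ddit3 (224, 103 and 124 against 169 and 156) overlapped between the groups. Centred means of the list were -0.05, -0.24 and -0.19 in HP1ag_KO, 0.54 and 0.52 in HP1a_KO, -0.02 in HP1ab_KO and -0.09, -0.15 and -0.32 in WT livers, so that both HP1a_KO livers stood above all other libraries. The median was -0.34 without HP1ag_KO replicate 1.

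ATF4 is known to bind composite sites with the core TGATGNAA. In RefSeq promoters (GRCm38.p6, 250 bases before to 50 after a start), read on both strands, 31 of 34 stress response members had an entry and 8 of these (25.8%) held the core, against 3.97% of all 32851 promoters and 2.82% of tested genes with a promoter. The median log2 difference was -1.41 for members with a match and -0.16 for those without. The called members Mthfd2, Psat1 and Sesn2 were not among the 8 with a match. Fgf21, Chac1 and Asns, which held a match, were not called. The part of ATF4 in these differences was not tested. A match is only these letters in the window. The 250 bases before the start are shown for the 3 members with the smallest limma p among those with a match, to let the letters be seen beside the values above, with the core or its reverse complement in capitals, 5′ to 3′ on the gene's strand.
Fgf21 chr7:45615491-45615740 (-): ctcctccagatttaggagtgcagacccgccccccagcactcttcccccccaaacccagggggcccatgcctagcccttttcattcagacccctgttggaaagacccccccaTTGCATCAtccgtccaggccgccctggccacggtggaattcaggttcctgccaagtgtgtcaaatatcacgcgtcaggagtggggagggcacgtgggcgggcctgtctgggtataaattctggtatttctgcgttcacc
Chac1 chr2:119350992-119351241 (+): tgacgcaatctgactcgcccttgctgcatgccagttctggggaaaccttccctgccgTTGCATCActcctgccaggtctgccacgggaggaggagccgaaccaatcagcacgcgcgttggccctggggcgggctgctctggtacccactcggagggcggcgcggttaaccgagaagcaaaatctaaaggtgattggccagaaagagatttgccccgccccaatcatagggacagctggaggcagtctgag
Asns chr6:7693210-7693459 (-): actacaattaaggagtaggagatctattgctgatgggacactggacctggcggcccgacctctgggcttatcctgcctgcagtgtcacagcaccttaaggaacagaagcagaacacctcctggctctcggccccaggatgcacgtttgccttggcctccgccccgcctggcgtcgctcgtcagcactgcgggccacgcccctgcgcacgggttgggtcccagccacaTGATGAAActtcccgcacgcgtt

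Interferon-stimulated genes were higher in HP1ag_KO livers. These genes act against viruses and are switched on by interferons. Of 52 members 47 were higher and 5 lower, with a median of 0.39 against -0.02 over all genes. There were 15 higher members at an unadjusted limma p under 0.05 and 0 lower. In 28 members every HP1ag_KO library lay above both HP1a_KO libraries, and DESeq2 called 5, all higher: Mx2, Stat2, Gbp3, Ifit1 and Ifit3. Over all genes tested 7.87% were higher at that unadjusted p, 17.5% lay above without overlap and 1.69% were called higher.

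The antiviral GTPase gene Mx2 had 334, 378 and 404 normalised reads in HP1ag_KO livers and 176 and 124 in HP1a_KO livers, with 179 in HP1ab_KO and 147 to 235 in WT livers. All 3 HP1ag_KO livers were above every other library (log2 difference 1.32 ± 0.23 SE, adjusted p = 0.000282 by DESeq2 and 0.126 by limma). Stat2, a transcription factor of interferon signalling, had 1795, 2131 and 1977 against 1354 and 1394, with 1382 to 1635 in WT livers (0.51 ± 0.11 SE, DESeq2 adjusted p = 0.0116). The guanylate-binding protein gene Gbp3 had 627, 556 and 829.9 against 371 and 418, with 351 to 446 in WT livers (0.75 ± 0.19 SE, DESeq2 adjusted p = 0.0218). For both genes the HP1ag_KO livers were again the highest of all. Ifit1, which binds viral RNA, had 678, 1200.1 and 1260.4 against 325 and 433, and its WT range of 359 to 979 overlapped the HP1ag_KO livers (1.43 ± 0.42 SE, DESeq2 adjusted p = 0.0154). The ubiquitin-like Isg15, a defining member, was not called and overlapped between the groups, at 149, 199.6 and 279 against 154 and 219 (0.14 ± 0.40 SE, DESeq2 adjusted p = 0.908).

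Over the list, centred means were 0.06, 0.22 and 0.45 in HP1ag_KO, -0.19 and -0.14 in HP1a_KO, -0.09 in HP1ab_KO and 0.23, -0.39 and -0.15 in WT livers. The HP1ag_KO livers were above the HP1a_KO livers, while WT replicate 1 was as high as HP1ag_KO replicate 2. Without 1 library the median ran from 0.32 (without HP1ag_KO replicate 3) to 0.52 (without HP1ag_KO replicate 1). Of 27 antigen presentation genes, 21 were higher (median 0.24, 0.14 without HP1ag_KO replicate 3 and 0.15 without HP1a_KO replicate 1) and none was called. Among them H2-T23, a nonclassical class I gene, had 7189, 8338 and 7391 against 5985 and 6234 (DESeq2 adjusted p = 0.110), and the class I genes B2m, H2-K1 and H2-D1 had differences of 0.09, 0.08 and -0.01.

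The interferon-stimulated response element holds a pair of GAAA words with any 2 bases between them. In the same RefSeq windows it was present on either strand in 22 of the 35 members with an entry (62.9%), of 52 tested, against 3.44% of all 32851 promoters and 3.86% of tested genes with a promoter. The members were listed as interferon-stimulated, so the share with a match describes the list and not these livers. The median log2 difference was 0.46 for members with a match and 0.25 for those without. A match is only these letters in the window, and the part of interferon signalling in these differences was not tested. Shown in the same way are the 3 members with the smallest limma p among those with a match, all called, with the pair or its reverse complement in capitals and overlapping matches joined in 1 run.
Stat2 chr10:128270248-128270497 (+): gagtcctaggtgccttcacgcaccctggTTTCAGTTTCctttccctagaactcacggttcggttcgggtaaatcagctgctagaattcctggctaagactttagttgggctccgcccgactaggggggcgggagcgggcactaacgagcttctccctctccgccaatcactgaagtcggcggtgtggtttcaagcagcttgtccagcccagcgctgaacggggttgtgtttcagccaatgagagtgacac
Gbp3 chr3:142559794-142560043 (+): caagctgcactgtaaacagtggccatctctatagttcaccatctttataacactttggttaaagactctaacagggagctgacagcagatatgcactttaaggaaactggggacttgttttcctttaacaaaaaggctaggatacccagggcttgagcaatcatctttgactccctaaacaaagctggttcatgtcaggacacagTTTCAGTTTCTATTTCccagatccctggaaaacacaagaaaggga
Ifit1 chr19:34640639-34640888 (+): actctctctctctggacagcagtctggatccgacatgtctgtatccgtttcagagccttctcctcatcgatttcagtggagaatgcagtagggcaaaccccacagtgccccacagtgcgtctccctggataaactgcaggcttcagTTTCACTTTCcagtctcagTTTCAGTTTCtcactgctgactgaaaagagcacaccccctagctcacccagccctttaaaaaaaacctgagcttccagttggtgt

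Zinc finger genes with names beginning in Zfp, many of which encode KRAB repressors that work with TRIM28 and HP1 proteins, were mostly higher. Of 299 tested 218 were higher and 81 lower, with a median of 0.21, 58 higher and 5 lower at an unadjusted limma p under 0.05. DESeq2 called 9, all higher. For all genes tested the shares were 7.87% higher and 8.36% lower at that unadjusted p, and 1.69% called higher. Zfp433 had 307, 312 and 269 normalised reads in HP1ag_KO livers and 149 and 151 in HP1a_KO livers, with 245 in HP1ab_KO and 156 to 181 in WT livers (0.97 ± 0.14 SE, DESeq2 adjusted p = 0.000260). Zfp445, known as a regulator of imprinting, had 2725, 3474 and 2884 against 1604 and 1933, with 2489 in HP1ab_KO and 1610.4 to 1643 in WT livers (0.77 ± 0.13 SE, DESeq2 adjusted p = 0.000282). In both the HP1ag_KO livers were the highest, the HP1ab_KO liver came next, and HP1a_KO and WT livers overlapped or adjoined.

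Zfp488 had 872, 1358 and 1194 normalised reads in HP1ag_KO livers against 508 and 514 in HP1a_KO livers, and Zfp329 had 327, 371 and 322 against 204 and 200.4 (DESeq2 adjusted p = 0.000294 and 0.00403). Centred means of the list were 0.07, 0.14 and 0.14 in HP1ag_KO, -0.08 and -0.12 in HP1a_KO, 0.09 in HP1ab_KO and -0.11, -0.03 and -0.09 in WT livers, and the median lay between 0.19 and 0.23 without any 1 library. These transcripts are poor in G and C, a feature that moved with the difference. In the lowest of those GC bins 86 Zfp-named genes had a median of 0.37 and the others 0.07, while in the highest bin 24 Zfp-named genes had -0.03 and the others -0.08. The sign of the list median held with scaling to equal totals (0.30), which moved the median of all genes to 0.08.

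Annotated long noncoding RNAs, a class chosen after the values were seen, were mostly higher. Of 2245 genes of this class 573 passed the filter on low values. That filter's mean is over 3 HP1ag_KO and 2 HP1a_KO libraries, so low members may have passed through the group where they were high. Of the 573 tested 445 were higher and 128 lower, with a median of 0.46 against -0.03 for 12750 protein-coding genes. In the lowest of the GC bins 72 long noncoding RNAs had a median of 0.71 and the other genes 0.08. In the highest GC bin 25 had 0.23 and the others -0.08. At an unadjusted limma p under 0.05, 154 were higher and 10 lower, against 7.87% and 8.36% of all genes tested. DESeq2 called 43 higher and 1, Gm26924, lower (1.69% and 1.59% of all genes tested), so this class made up 43 of the 235 genes called higher. Intergenic RNAs (138 of 173 higher, median 0.55), antisense RNAs (160 of 204, 0.46) and sense intronic RNAs (18 of 20, 1.04) shared the direction, as did unprocessed pseudogenes (63 of 78, 0.54, and 0.36 without HP1ag_KO replicate 3). Processed pseudogenes did too (107 of 172 higher, 0.36). Small nucleolar RNAs did not (26 of 70 higher, -0.17).

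Malat1, an abundant nuclear RNA (chromosome 19, 5795690 to 5802672), had 95036, 146462 and 104942 normalised reads in HP1ag_KO livers and 52770.5 and 70366 in HP1a_KO livers, with 69214 in HP1ab_KO and 74644 to 96222 in WT livers (0.90 ± 0.24 SE, DESeq2 adjusted p = 0.00667). The HP1ag_KO and HP1a_KO libraries did not overlap, and WT replicate 2 reached into the HP1ag_KO range. Ftx, a regulator of Xist, had 128, 153 and 127 against 86.2 and 68.8 and was not called (DESeq2 adjusted p = 0.0665). The unnamed models Gm26905 and Gm4117 kept their calls without any 1 library. Gm26905 had 8387, 12951 and 10356 against 4453 and 4782 (1.17 ± 0.19 SE, DESeq2 adjusted p = 2.54e-05), and Gm4117 had 659, 925 and 724 against 325 and 300.2 (1.28 ± 0.20 SE, DESeq2 adjusted p = 3.50e-05).

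Long noncoding RNAs were mostly higher at levels well above the filter too. The level is the same mean as in the filter, so RNAs high in HP1ag_KO livers may have entered the lowest level through that group. There, among 177 with a mean of 10 to 20, the median was 0.47, which is only a description. Among 79 with a mean of 100 to 300 it was 0.39, among 26 with a mean of 300 to 1000 it was 0.43, and 16 above 1000 had 0.05. The corresponding medians of protein-coding genes were 0.10, 0.01, -0.03 and -0.07. Centred means were 0.11, 0.35 and 0.19 in HP1ag_KO, -0.24 and -0.23 in HP1a_KO, -0.06 in HP1ab_KO and -0.09, 0.06 and -0.09 in WT livers: the HP1ag_KO livers were the highest, the HP1a_KO livers the lowest, and HP1ab_KO and WT lay between. The median was 0.35 without HP1ag_KO replicate 2 and 0.49 without HP1ag_KO replicate 1. Because the strand setting of the counting is not given in the sources used here, reads of antisense and intronic models cannot be told apart from reads of the genes they overlap. Whether unspliced or nuclear RNA was more abundant in the HP1ag_KO libraries was not tested.

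**Figure D4:**
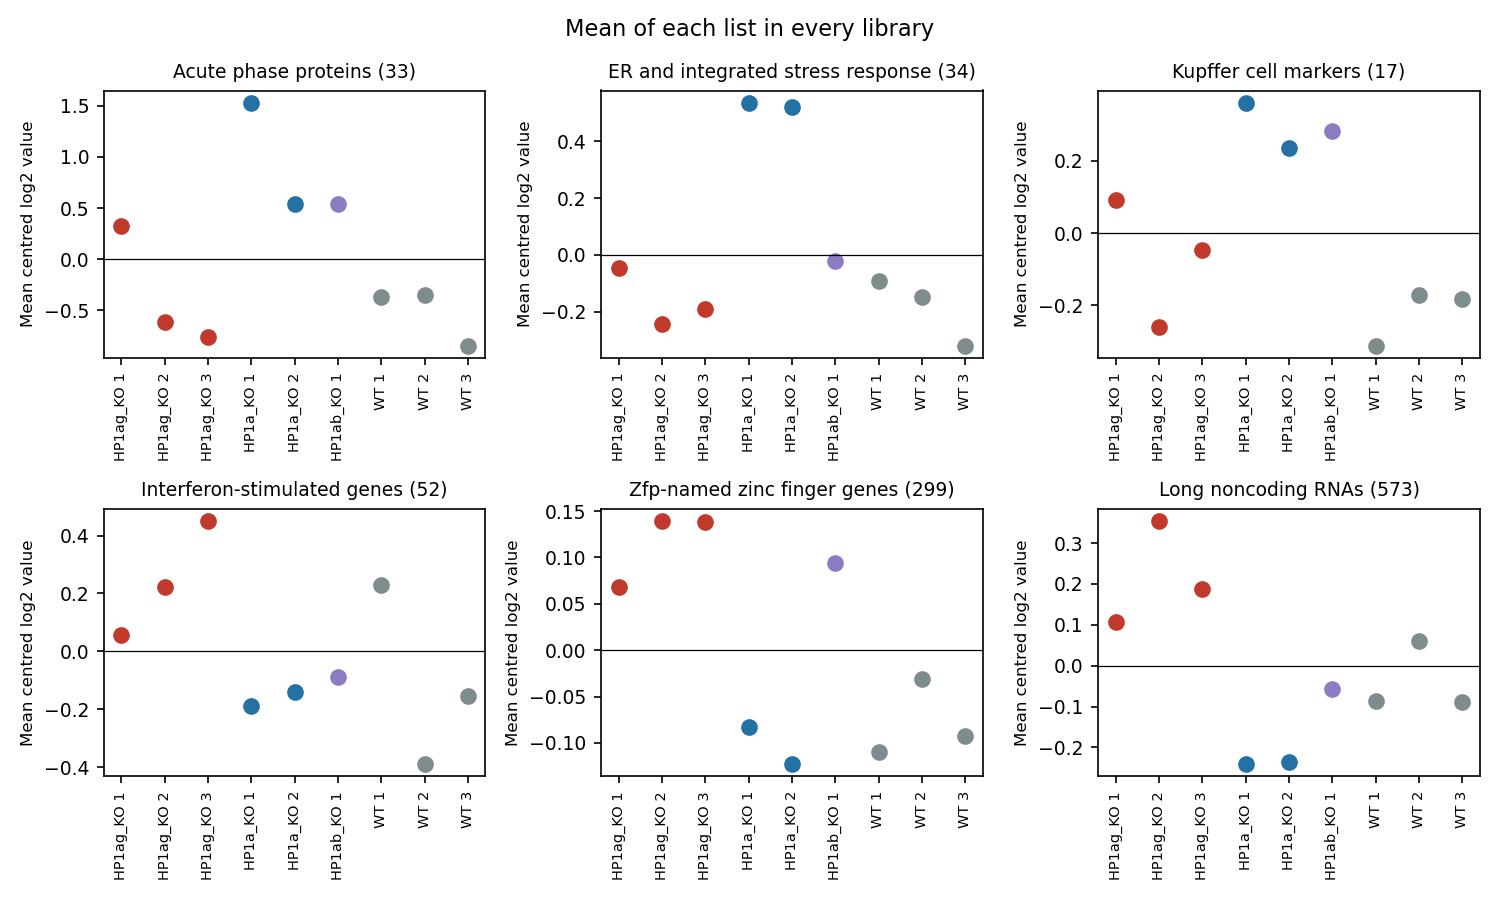
Mean over each list of log2(value + 1), centred per gene on the 9 libraries (y axis), in every library (x axis), for 6 lists with the number of members tested. Both HP1a_KO libraries lie above all HP1ag_KO libraries for acute phase, stress response and Kupffer cell genes, and below them for interferon-stimulated, Zfp-named and long noncoding genes.

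Metabolic gene lists differed less evenly. Of 24 cholesterol synthesis genes 18 were lower (median -0.37) and none was called. The median was -0.17 without HP1ag_KO replicate 1, 0.10 without HP1a_KO replicate 1 and -0.78 without HP1a_KO replicate 2. Dhcr7, the last enzyme of the pathway, had 703, 1367 and 777 normalised reads in HP1ag_KO livers against 1859 and 1436 in HP1a_KO livers. Hmgcs1, an early enzyme of the pathway, had 6141, 10029 and 7165 against 21125 and 8795, with HP1a_KO replicate 1 far above the rest. In the synthesis of fatty acids and triglycerides 17 of 26 genes were higher (median 0.16, 0.07 without HP1a_KO replicate 2) and none was called. Mlxipl, which encodes the carbohydrate-sensing factor ChREBP, had 2956, 4775 and 3189 against 2374 and 2485, without overlap (DESeq2 adjusted p = 0.139).

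Of 28 targets of the xenobiotic receptors CAR and PXR 20 were higher (median 0.31), and Cyp2c50, Meg3 and Gstt3 were called higher. Over all genes tested 1.69% were called higher and 1.59% lower, the measure for the calls in this paragraph. Cyp2b10, the usual marker of CAR activity, had 259, 51.6 and 38.8 normalised reads in HP1ag_KO livers against 31.2 and 37.0 in HP1a_KO livers, so 1 library was high and the others lay near the HP1a_KO level. Of 31 NRF2 antioxidant genes 20 were lower (median -0.14, -0.07 without HP1ag_KO replicate 1). Gclm, a subunit of the enzyme that starts glutathione synthesis, was called lower at 4443, 5062 and 4762 against 7102 and 7308 (-0.60 ± 0.11 SE, DESeq2 adjusted p = 0.000675), as was Ces2g, whereas Gstm2 (1435, 1317 and 1171 against 669.7 and 937, log2 difference 0.72, 0.48 without HP1a_KO replicate 1) and Gsta2 were called higher.

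HP1ag_KO replicate 1 stood apart in sex-biased liver genes. Centred means of 41 male-biased genes were -2.28, 0.66 and -0.25 in HP1ag_KO and -0.27 and 0.25 in HP1a_KO livers, and those of 32 female-biased genes were 1.93, -0.23 and 0.48 in HP1ag_KO and 0.44 and 0.15 in HP1a_KO livers. The male-biased median of -0.49 was 0.12 without HP1ag_KO replicate 1, and the female-biased median of 0.09 was -0.27. The female-biased P450 gene Cyp2b13 had 3277, 5.61 and 28.4 normalised reads in HP1ag_KO against 1.83 and 3.44 in HP1a_KO livers, and no DESeq2 adjusted p. The Y-linked helicase gene Ddx3y was at 3799, 4189 and 4211 in HP1ag_KO and 3036 and 3702 in HP1a_KO livers, and thus expressed in each; it was chosen after its values were seen. Susd4 was called lower and Mup21 and Cyp2c38 higher among these genes, against 1.59% and 1.69% of all genes tested. The major urinary protein genes, also male-biased, had a median of -0.95 over 18 members that was 0.20 without HP1ag_KO replicate 1, -1.97 without HP1ag_KO replicate 2 and -0.10 without HP1a_KO replicate 2.

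The other lists had medians that moved by over 1.5 times when at least 1 library was left out, as the plot of list medians shows. Hepatocyte identity genes had a median of -0.09, and of them the iron carrier gene Trf (112807, 119982 and 121549 against 199244 and 166240.0) and the lipoprotein gene Apob (450420.0, 506592 and 501157 against 585757 and 647474; log2 difference -0.34 ± 0.27 SE) were called lower. The median was -0.11 for ribosomal protein genes (61 of 73 lower, none called), -0.15 for PPAR-alpha targets and 0.07 for bile acid genes. Cell cycle genes had a median of 0.10 that was -0.26 without HP1a_KO replicate 1, and replication-dependent histone genes -0.20 that was 0.12 without HP1ag_KO replicate 2. Clock genes had -0.45, glucocorticoid and fasting genes -0.29, immediate early genes -0.09, p53 targets 0.03, heat shock genes 0.05, growth hormone signalling genes -0.03, mitochondrially encoded genes 0.11 and cholangiocyte markers 0.08. Periportal and pericentral hepatocyte genes had 0.03 and -0.01. Scaling to equal totals turned the sign of the medians of hepatocyte identity, sinusoidal endothelial, lymphocyte, immediate early, growth hormone, pericentral and protein-coding genes, all within 0.1 of 0 without it. Fetal liver and liver cancer markers had 15 higher and 13 lower members: Meg3 and Prom1 were called higher, and S100a11 (9.11, 8.97 and 10.4 against 44.0 and 32.7), Cd44 (452, 357 and 346 against 716 and 607) and Tff3 (85.7, 93.1 and 149.5 against 283 and 275) lower. The shares of all genes tested, 1.69% called higher and 1.59% called lower, are the measure for the calls in these lists.

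**Figure D5:**
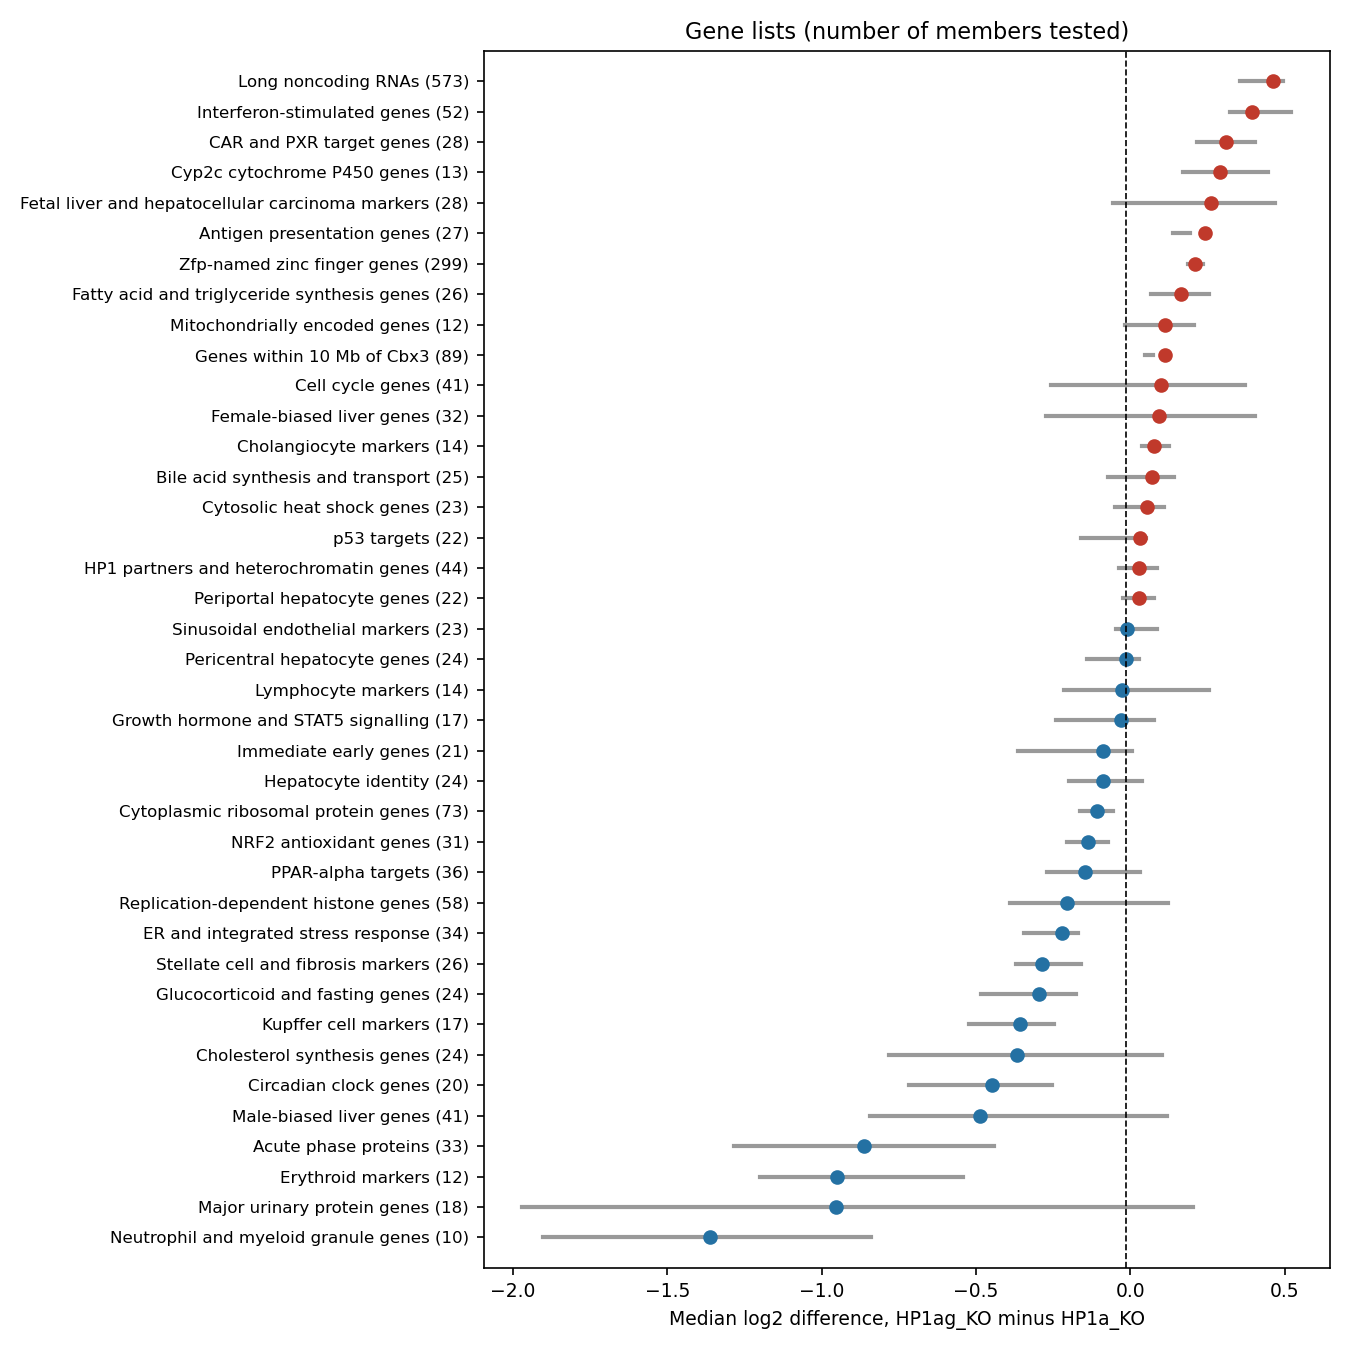
Median log2 difference of HP1ag_KO minus HP1a_KO (x axis) for each gene list (y axis, with the number of members tested). Points are medians with all 5 libraries, grey bars run from the lowest to the highest median when 1 library is left out, and the dashed line marks the median of all genes (-0.02). The interferon, Zfp-named and long noncoding bars stay above 0, the acute phase, stress response and Kupffer cell bars stay below 0, and the male-biased and major urinary protein bars cross 0. The neutrophil and erythroid medians cover only the members that passed the filter on low values.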

How the data were processed

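Total RNA of whole liver was extracted with Trizol and sequenced from stranded libraries depleted of ribosomal RNA, per the labels' protocols. Per the submitters' processing notes, the tools were the aligners TopHat2 2.0.10 and Bowtie2 2.1.0, the counter HTSeq 0.5.4p3, CASAVA 1.8.2 and DESeq2 1.0.19, with build mm10. For the annotation release, read filters and strand setting, the entry is: not given in the sources used here. The deposited values are a signal that the authors made by dividing read counts per gene by 1 size factor per library, as the steps of the values show. Whole reads were recovered for 100% of values (tolerance 0.1 read), and 16266423 to 34834239 reads per library among the 5 compared limit the precision of low genes.

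Genes averaging 10 or more over the 3 HP1ag_KO and 2 HP1a_KO libraries entered limma 3.58.1 (R 4.3.3, with a trend of the variance on the mean) as log2(value + 1), a scale that understates changes of low genes. All 9 libraries in 4 groups shared 1 estimate of the spread (5 residual degrees of freedom), and p-values were two-sided and adjusted by Benjamini-Hochberg over all 13902 genes. On recovered reads, edgeR 4.0.16 (quasi-likelihood) and DESeq2 1.42.0 (Wald) were run as alternatives, beside other pseudocounts, filters, scalings, array weights and leaving out each library. The script was tested on simulated data. Named genes were Cbx3, Cbx5, Cbx1 and Hnrnpa2b1; up to 15 genes per direction with the widest difference among called genes without overlap whose higher group averaged 50 or more, taken from DESeq2 calls because limma called 0, leaving out unnamed models, Xist and Y-linked genes; and per list up to 4 members with the smallest limma p plus its defining markers. Others were chosen after their values were seen. The members and lists were chosen with earlier results of these data known. Positions and gene classes come from GENCODE M21 (GRCm38), which matched 22257 genes (98.0%), and promoters from RefSeq GRCm38.p6. The labels give animal numbers that pair no samples. The name of the deposited table carries 2 codes whose meaning the labels do not give and that no label ties to a library. If they stand for batches, a difference between batches cannot be told apart from one between groups. The study's other comparisons were not analysed here.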

Additional observations from a re-analysis of the deposited data

How the results depend on the processing

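The count of 0 genes called by limma became 26 with array weights, 456 with DESeq2, and 0 to 5 without 1 of the 5 libraries compared (3 without HP1ag_KO replicate 1 and 5 without HP1a_KO replicate 2). Where 1 HP1a_KO library was left, its spread was taken to be that of the other groups. Other pseudocounts, filters and scalings, no trend, edgeR and a fit of only the 5 libraries compared also gave 0. The 456 genes called by DESeq2 became 29 to 472 without 1 of those libraries, an alternative chosen after seeing the data, and 602 with only the 5 libraries in the DESeq2 fit. Among the 30 genes named by rule and Cbx3 no difference changed sign under any alternative run. Leaving out a library could not change it, because none of these genes overlapped between the groups. The uncalled differences of Cbx1 and Hnrnpa2b1 and some list medians changed sign without 1 library, and that of Hnrnpa2b1 also with equal totals (0.07). Over these alternatives, 504 log2 differences of named genes stayed on their side of the threshold and 37 passed it (31 of them by DESeq2). The 30 genes named by rule were taken from DESeq2 calls, so their passing by DESeq2 was fixed by that choice. Of list and class medians, 726 moved by less than the spread between replicates and 26 by more (7 of them with equal totals, which moved the median of all genes to 0.08). Of the DESeq2 calls of named genes recomputed without 1 library, 81 were kept and 60 lost, and the rest had no adjusted p; the cause was not tested. The 3 and 2 libraries compared, and the 16266423 reads of HP1a_KO replicate 1, limit what could be called. No paired analysis was possible because the animal numbers in the labels are not shared between groups.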

Other observations

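Catsperg2, a gene for a subunit of the sperm calcium channel that was chosen after its values were seen, had 12, 70 and 58 recovered reads in HP1ag_KO replicates 1 to 3 and 0 in both HP1a_KO libraries, the HP1ab_KO library and the 3 WT libraries. A count of 0 allows up to 3 reads in each of those libraries, for counting error only. DESeq2 did not call it (adjusted p = 0.392), and no fold is given.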
